A study of Ovis aries with 30 samples.

Results

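The genes described here are the molecular chaperones of the cytosol and of the mitochondria, with their co-chaperones and the heat shock transcription factors HSF1 and HSF2. They were chosen by symbol from the deposited count table: 45 symbols were listed and 44 had a row among the 28524 rows of the table. HSPE1, the partner of HSPD1 in the mitochondrial folding chamber, had no row under its symbol and is given no value. The 44 genes are 5 of the HSP70 and HSP110 families, 2 HSP90 genes, 3 small heat shock proteins (small HSPs), 6 J-domain proteins, 2 BAG proteins, 6 co-chaperones of HSP90, 7 subunits of the CCT ring, 6 prefoldin subunits, 5 mitochondrial chaperones and 2 heat shock factors. All 44 had at least 10 reads in at least 10 libraries of each tissue, so that no member was lost to the filter on low counts.

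HSP70 proteins bind unfolded stretches of a protein and release them in a cycle driven by ATP, in which J-domain proteins such as DNAJB1 deliver the client and HSP110 and BAG proteins exchange the nucleotide. STIP1 passes clients from HSP70 to HSP90, which completes the folding of kinases and steroid receptors together with CDC37, AHSA1, FKBP4 and PTGES3. Prefoldin hands new actin and tubulin to the CCT ring, small HSPs hold unfolded proteins in solution, and HSPA9 and HSPD1 fold proteins imported into the mitochondrion. Many of these genes are transcribed under heat shock factors, which are released when unfolded proteins occupy the chaperones, and brown adipose tissue (BAT) is rich in mitochondria and makes heat.

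Poly(A) mRNA was sequenced from BAT around the kidneys and from the thyroid of 15 twin-born Romney lambs, 1 per dam, with both tissues taken from each lamb. The lambs were 6 kept at 4 °C for 2 days (cold), 6 kept indoors at 20 to 22 °C for 2 days (ambient temperature, AT) and 3 controls sampled at about 24 h after lambing by the series' design text, and within the first day of life by the study's methods. The controls were younger by the 2 days of exposure, so treatment and age cannot be told apart in a comparison with controls, and cold against AT alone compares lambs of one age. Of the 3 controls, the study set 1 lamb aside in both tissues, here control 2. The tests used controls 1 and 3, and the counts of members that passed or did not overlap are also given with all 3 controls. The same 2 controls stand in the cold and in the AT comparison, so the 2 comparisons are not independent of each other.

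Libraries held 31556500 to 37025998 counts in BAT and 25062784 to 30124871 in thyroid. Brown adipocyte markers summed to 29147 to 121866 normalised counts in BAT, and thyroid follicular markers to 1328920 or more in every thyroid library tested, as labelled. Libraries that stood apart were found in the thyroid. The summed normalised count of 13 skeletal muscle markers was 4208550 in AT 3 and 391797 in control 1, against 428 to 5077 in the other 12 libraries tested. AT 3 held the highest value among the 12 treated lambs for 38 of the 44 chaperone genes. For how many of all genes it was highest was not counted. The size factor that divides its counts was 0.741, against 0.988 to 1.21 in the other treated thyroid libraries. Among the thyroid controls it was 0.921 in control 1, 0.756 in control 3 and 0.632 in the unused control 2. The part of AT 3 in the results was measured by leaving it out. The unused control 2 differed by tissue. In BAT it lay above both used controls for 30 of 44 members, and in thyroid it lay below both for 40 of 44. In the thyroid, 29 of its 44 values fell within the range of the treated lambs.

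**Figure D1:**
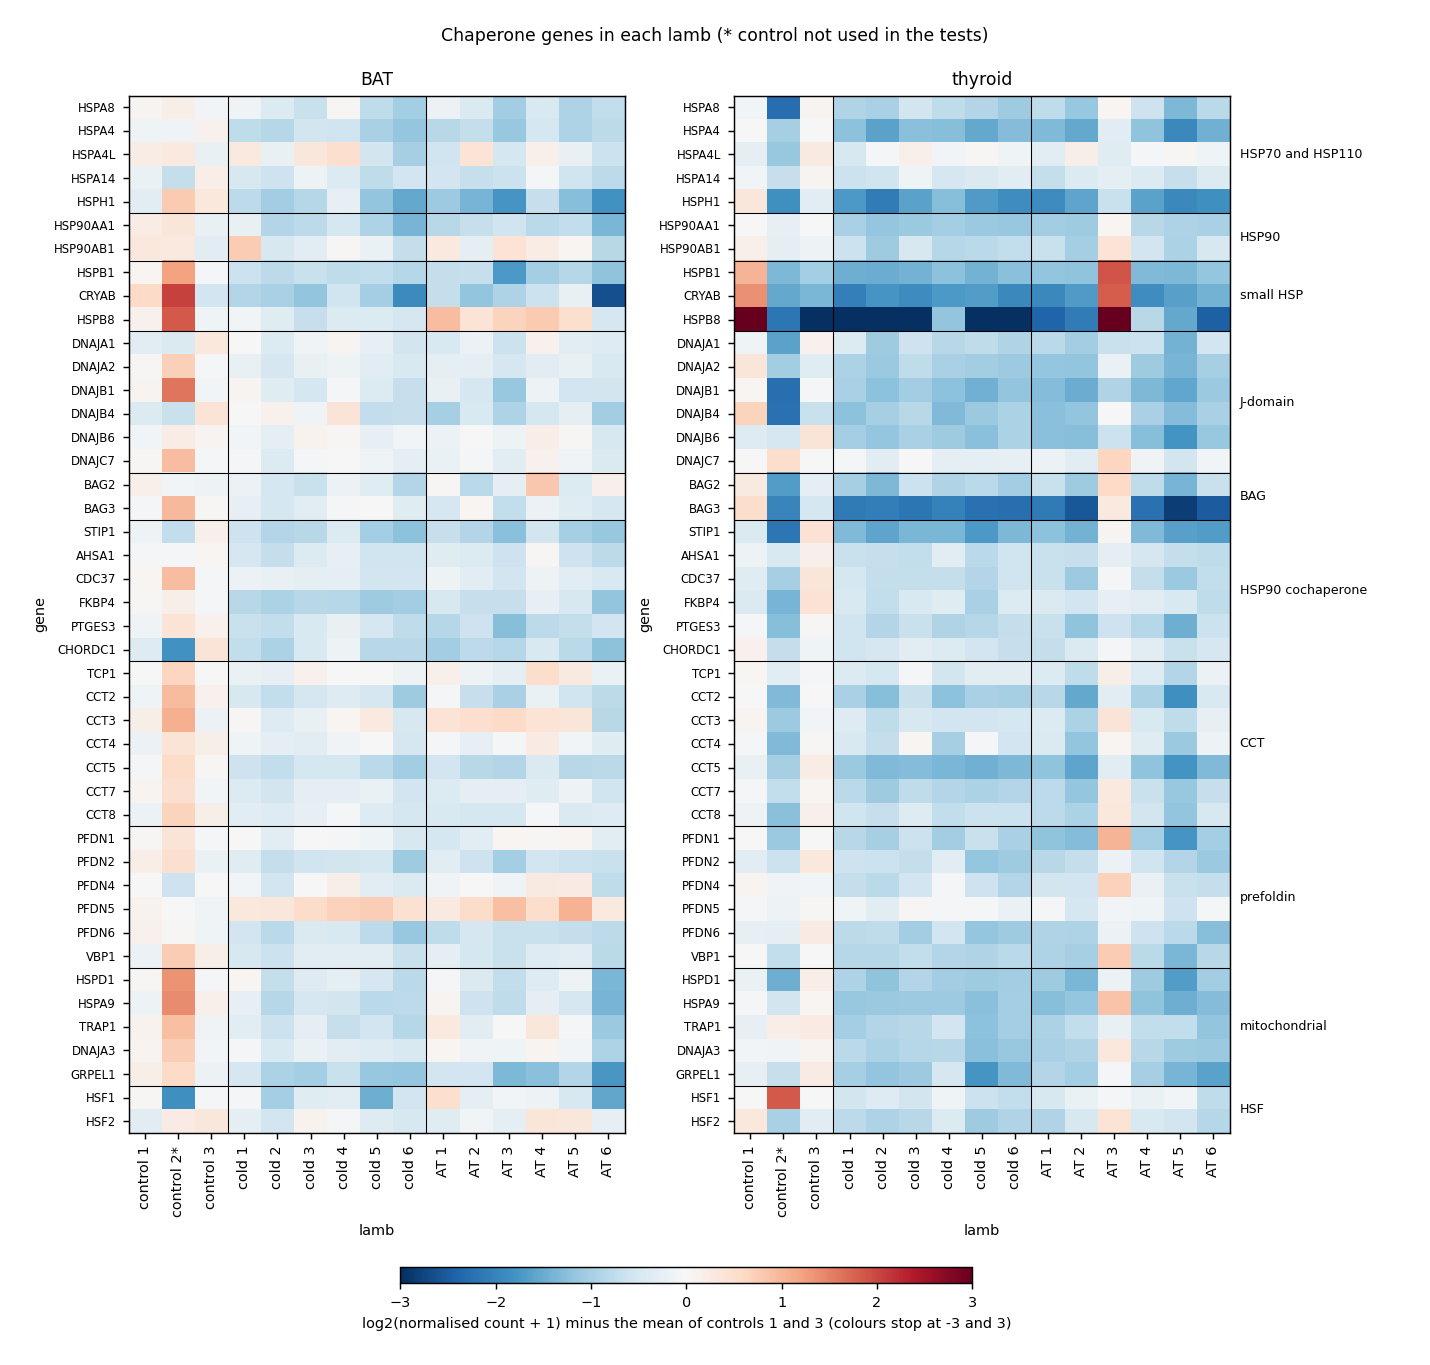
Colour gives log2(normalised count + 1) of each gene (rows, by class) in each lamb (columns) minus the mean of controls 1 and 3, in BAT (left) and thyroid (right). Most thyroid values of treated lambs are blue (lower than controls), except in AT 3, which was highest among treated lambs for 38 of 44 genes, while control 2 is mostly red in BAT and blue in thyroid.

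The levels of the chaperones per kilobase of exon spanned more than 2 orders of magnitude, and a few cytosolic genes made up the top of the list in both tissues. On one scale for both tissues, the most abundant members of BAT were HSPB1, a small HSP, at 9364 ± 2770 normalised counts per kb (mean ± SD, n = 14 lambs) and the constitutive HSP90AB1 at 9073 ± 2822. HSP90AA1 followed at 8556 ± 2623 and HSPA8, the constitutive cytosolic HSP70, at 7115 ± 1904. These 4 means lay within 1 SD of their neighbours in the order. In thyroid the first place was held by CRYAB, the small HSP alpha B crystallin, at a mean of 29534 per kb with an SD of 43930, since AT 3 and control 1 carried most of it. HSPB1 at 10503 ± 13410, with the same 2 libraries highest, HSPA8 at 6689 ± 2317 and the prefoldin subunit PFDN5 at 3691 ± 484 came next. HSPA4L, an HSP110 gene, was the lowest member in both tissues, at 21.6 ± 6.78 per kb in BAT and 20.5 ± 3.06 in thyroid.

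Subunits of one complex were not measured at equal levels. In BAT, CCT3 stood at 4944 ± 1339 per kb, 6.98 times the lowest CCT subunit, CCT5 (709 ± 165), and TCP1 was second at 2780 ± 478. The other 4 subunits lay between 869 and 1668 per kb. In thyroid TCP1 led at 2137 ± 454, 3.57 times CCT5 (600 ± 303 per kb), and CCT3 was at 1453 ± 411. Among prefoldin subunits PFDN5 was 19.5 times VBP1 in BAT and 15.3 times VBP1 in thyroid, and it was 5.83 and 4.39 times the second subunit in the order. A read with several places in the genome counted once for each place, so levels of genes with processed copies elsewhere in the genome are uncertain. TCP1 also overlaps ACAT2 on the other strand by 91 bases, and the strand setting of the counting was not stated.

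Between the tissues, 23 of the 44 members differed, 15 higher and 8 lower in BAT than in thyroid, where 71% of all 17021 genes tested differed (44.5% higher and 26.5% lower). The median log2 difference of the members was 0.08, against 0.24 over all genes. In bulk tissue, fewer cells of a type and less RNA per cell cannot be told apart. The HSP90 genes and CCT3 were the cytosolic members most above thyroid in BAT. HSP90AB1, on chromosome 20 (19450731-19456417, + strand, build Oar_rambouillet_v1.0), was higher by 1.58 ± 0.19 on the log2 scale (SE, adjusted p = 5.11e-08, edgeR quasi-likelihood test). HSP90AA1 was higher by 1.39 ± 0.14 (adjusted p = 2.91e-09) and CCT3 by 1.66 ± 0.16 (adjusted p = 8.61e-10). HSPD1, the mitochondrial HSP60, was higher in BAT by 1.27 ± 0.16 (adjusted p = 9.43e-08), as were GRPEL1 and DNAJA3, which act with HSPA9. HSPA9 itself (log2 difference 0.21 ± 0.23, adjusted p = 0.424) and TRAP1, the mitochondrial HSP90 (adjusted p = 0.995), did not pass.

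HSF1 was also higher in BAT, by 1.54 ± 0.19 (adjusted p = 3.67e-08), while HSF2 did not pass (-0.13 ± 0.15, adjusted p = 0.453). Lower in BAT were CRYAB (log2 difference -4.42 ± 0.56, adjusted p = 1.81e-07), the HSP90 co-chaperones FKBP4 (-0.83 ± 0.12), AHSA1 and STIP1, the J-domain genes DNAJB6 and DNAJA2, and the prefoldin subunits PFDN2 and PFDN6. CRYAB was lower in BAT also when lambs AT 3 and control 1 were left out. The count of members that passed was then 29 (21 higher, 8 lower). The split depended on the scaling: by TMM, which scales on all genes, 11 were higher and 12 lower in BAT, and by the median of ratios 10 and 14. With all 3 controls 18 were higher and 5 lower. The share of all genes that passed was not counted in these alternative runs. CCT3, HSP90AA1, HSP90AB1, HSPD1, HSF1 and FKBP4 passed in the same direction under each alternative run and without any single lamb.

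**Figure D2:**
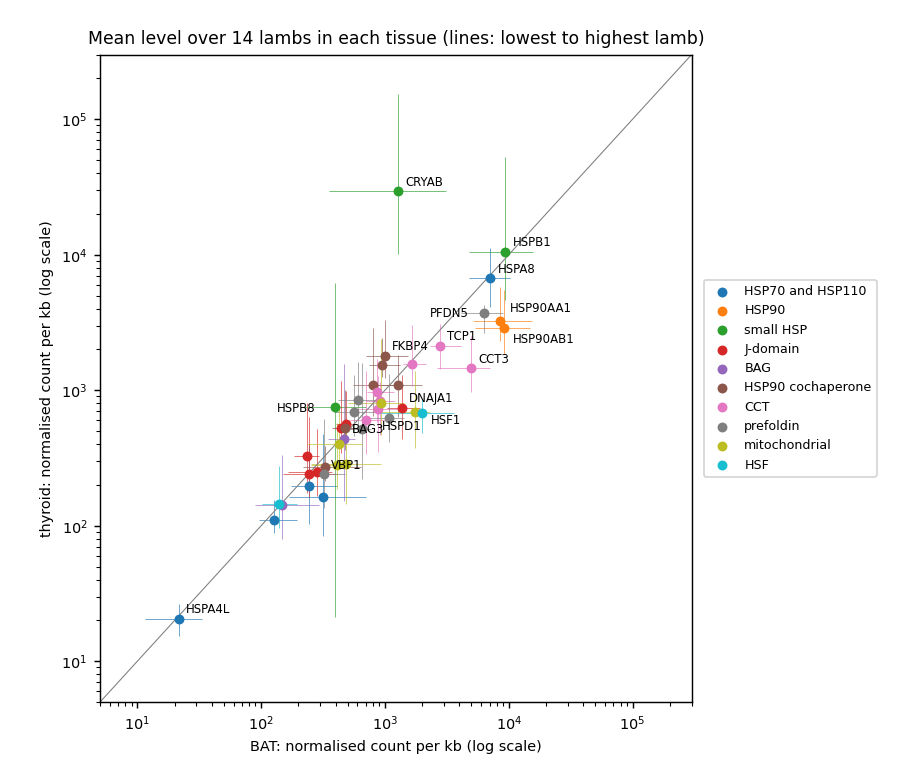
Each point is the mean normalised count per kb of one gene over 14 lambs in BAT (x axis, log scale) and thyroid (y axis, log scale), coloured by class, with lines from the lowest to the highest lamb. HSP90AA1, HSP90AB1 and CCT3 lie below the diagonal (higher in BAT) and CRYAB far above it, at 1269 per kb in BAT and 29534 in thyroid.

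In thyroid, the fitted change from the controls was below 0 for every member in both treated groups. In cold lambs, 25 of the 44 members fell and none rose. Over all 16122 genes tested, 19.3% passed in either direction and 16.9% fell. All 44 log2 fold changes (log2FC) were below 0, beside 70.2% of all genes. The median was -0.87 against -0.28 over all genes, and 14 members fell with a log2FC of -1 or below (6.15% of all genes). In AT lambs, 18 members fell and none rose, where 21% of all genes passed and 18.7% fell. Again all 44 were below 0, beside 68.5% of all genes. The median was -0.68 against -0.28, and 8 members fell with a log2FC of -1 or below (5.98% of all genes). The values of all 6 cold lambs lay below both controls for 35 members (28.5% of all genes), and those of all 6 AT lambs for 11 (21.7% of all genes). Set against all 3 controls, these were 14 members in the cold (12.2% of all genes) and 2 at AT (9.18%).

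The class medians of the log2FC in cold thyroid were -1.61 in the 2 BAG genes, -1.08 in the J-domain genes, -1.04 in the mitochondrial chaperones, -0.92 in HSP90 and -0.84 in HSP70 and HSP110. They were smaller in prefoldin (-0.80), the HSP90 co-chaperones (-0.69), the heat shock factors (-0.66) and CCT (-0.62). By class, 5 of 6 J-domain genes fell in the cold, 5 of 6 HSP90 co-chaperones, 4 of 5 mitochondrial chaperones, 3 of 5 HSP70 and HSP110 genes, 3 of 7 CCT subunits and 2 of 6 prefoldin subunits. In AT thyroid 5 of 6 J-domain genes fell, and the class medians were -0.76 in the mitochondrial chaperones (2 of 5 fell), -0.70 in HSP70 and HSP110 (3 of 5), -0.66 in the co-chaperones (4 of 6), -0.53 in CCT (2 of 7) and -0.52 in prefoldin (1 of 6). No heat shock factor passed in either comparison, and no small HSP or BAG gene passed at AT. The median of the small HSPs, -2.41 in the cold, rested on control 1: the class mean was 2.10 above the mean of the controls in control 1 and as far below it in control 3 (-2.10), where the cold lambs had -2.47 to -1.38 and the AT lambs other than AT 3 had -1.83 to -1.34. The classes were not tested against each other.

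**Figure D3:**
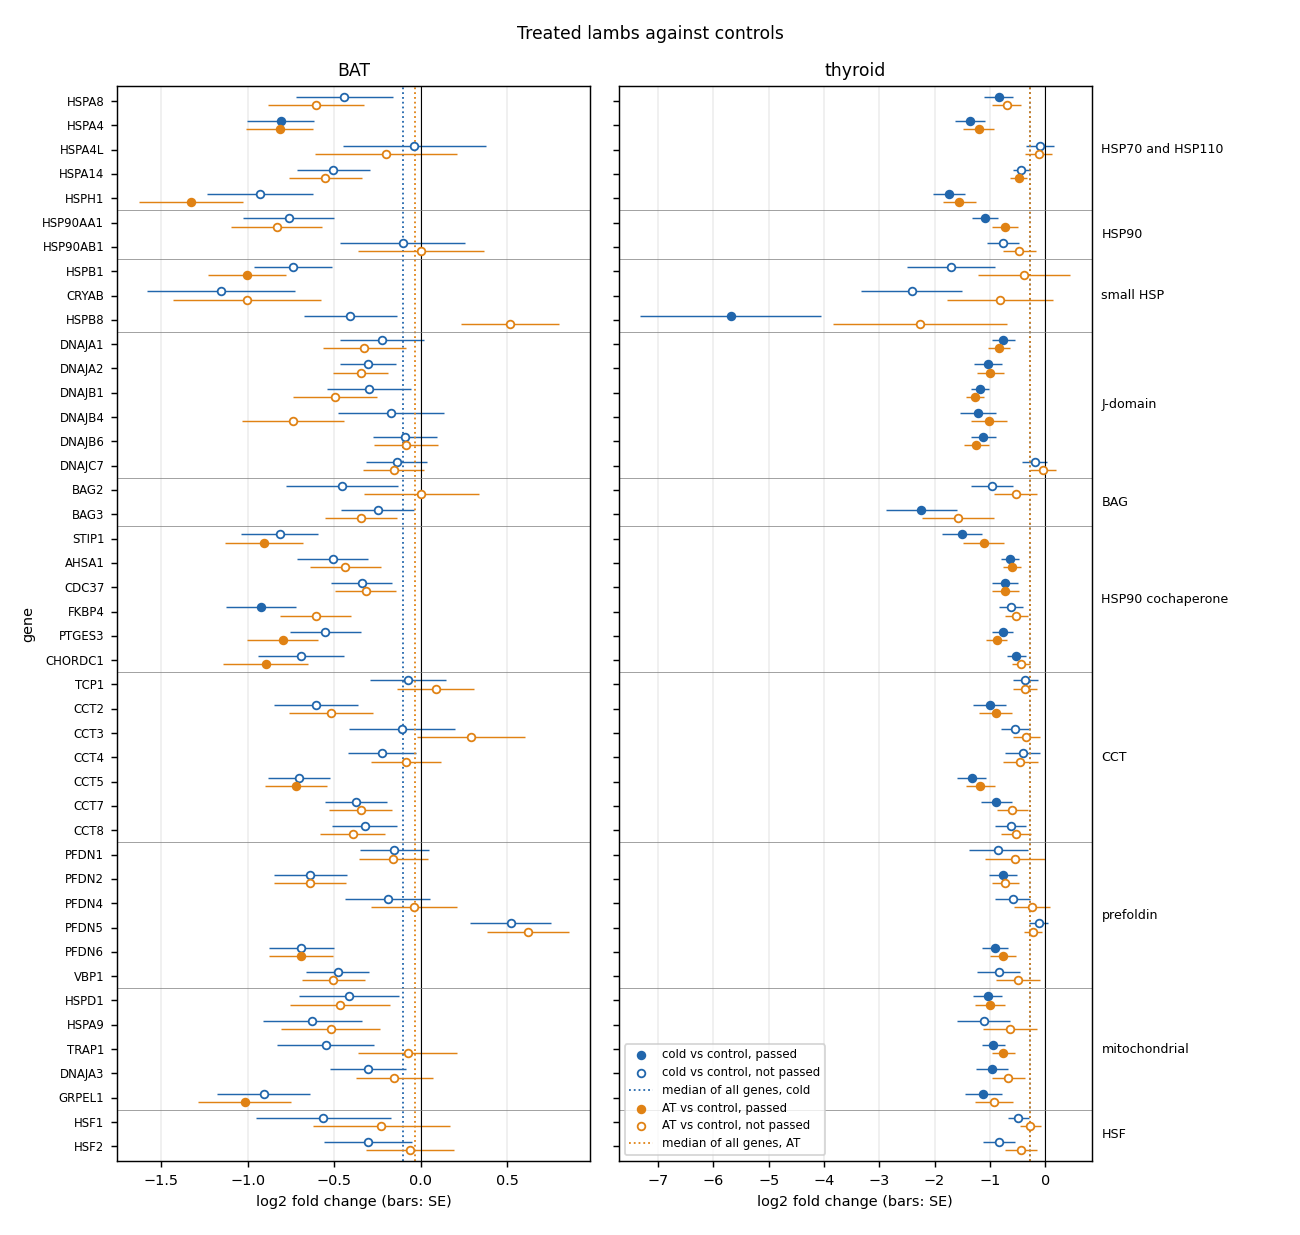
The log2 fold change (x axis, bars: SE) of each member against controls 1 and 3 is shown for cold (blue) and AT (orange) in BAT (left) and thyroid (right); filled points passed an adjusted p of 0.05 and dotted lines are the medians of all genes. In thyroid all 44 points of both comparisons lie below 0, and in BAT PFDN5 is the member furthest above 0 in both.

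HSPH1, the HSP110 that recycles HSP70, changed most among the HSP70 and HSP110 genes. Its thyroid normalised counts were 2784 and 1750 in the controls, 514 to 914 in the cold lambs (median 671) and 573 to 1395 in the AT lambs (median 669). No treated lamb reached a control, and the highest treated value was that of AT 3. HSPH1 fell to 0.301 of the control level in the cold (log2FC -1.73 ± 0.29, adjusted p = 0.00262) and to 0.341 at AT (-1.55 ± 0.29, adjusted p = 0.00343). HSPA4, a second HSP110, stood at 3578 and 3580 in the controls and at 1171 to 1517 in the cold (median 1461). It fell to 0.388 of control in the cold (adjusted p = 0.00582) and to 0.433 at AT (adjusted p = 0.00867). HSPA8 stood at 36520 and 40350 in the controls and at 18474 to 26412 in the cold (median 20744), with no overlap. It fell in the cold (log2FC -0.84 ± 0.26, adjusted p = 0.0381) and did not pass at AT (-0.70 ± 0.27, adjusted p = 0.0734), where AT 3 alone, at 40210, reached the controls. The unused control 2 held 7825 normalised counts of HSPA8, fewer than any treated lamb, and with it the cold log2FC was -0.40 (adjusted p = 0.494).

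DNAJB1, the J-domain partner of HSPA8 and a heat shock target, stood at 2178 and 1991 in the thyroid of the controls. Cold lambs had 767 to 1069 (median 904) and AT lambs 703 to 1105 (median 832), all below both controls. It fell by 1.18 on the log2 scale in the cold (SE 0.17, adjusted p = 0.0016) and by 1.27 at AT (SE 0.17, adjusted p = 0.000854). Control 2 again lay below every treated lamb, at 433, and with all 3 controls DNAJB1 did not pass (log2FC -0.74, adjusted p = 0.128, in the cold and -0.83, adjusted p = 0.0905, at AT). DNAJB6 fell to 0.460 of control in the cold and to 0.421 at AT (adjusted p = 0.00622 and 0.00302) and passed with all 3 controls as well. DNAJB4 had 4931 and 1952 in the controls, 1236 to 1755 in the cold and 1263 to 3116 at AT. It fell in both (log2FC -1.22 ± 0.33, adjusted p = 0.0207, and -1.02 ± 0.33, adjusted p = 0.0406), with the cold lambs below both controls and AT 3 above control 3. The higher control was control 1, a library with skeletal muscle markers. Control 2, at 661, lay below every treated lamb. With controls 2 and 3, and AT 3 and control 1 left out, the sign of the DNAJB4 change turned in both comparisons. DNAJA1 and DNAJA2 also fell in both comparisons, and DNAJC7, which binds both HSP70 and HSP90, was at -0.19 ± 0.23 and -0.05 ± 0.23.

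HSP90AA1, the inducible HSP90, stood at 26176 and 26869 in the thyroid of the controls and at 11876 to 13532 in the 6 cold lambs (median 12266). It fell to 0.471 of control in the cold (log2FC -1.09 ± 0.23, adjusted p = 0.00747). At AT, 5 lambs had 12716 to 14889 and AT 3 had 27542, and the fall was to 0.600 (log2FC -0.74 ± 0.23, adjusted p = 0.0381). HSP90AB1 had 18106 and 14792 in the controls and 7864 to 11769 in the cold (log2FC -0.76 ± 0.29, adjusted p = 0.0745). Of the co-chaperones, STIP1 changed most, from 5399 and 9755 in the controls to 2195 to 2914 in the cold (log2FC -1.50 ± 0.36, adjusted p = 0.0133) and 2265 to 7693 at AT (-1.11 ± 0.37, adjusted p = 0.0444). Its 2 controls differed from each other by more than either HSP90 gene did.

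**Figure D4:**
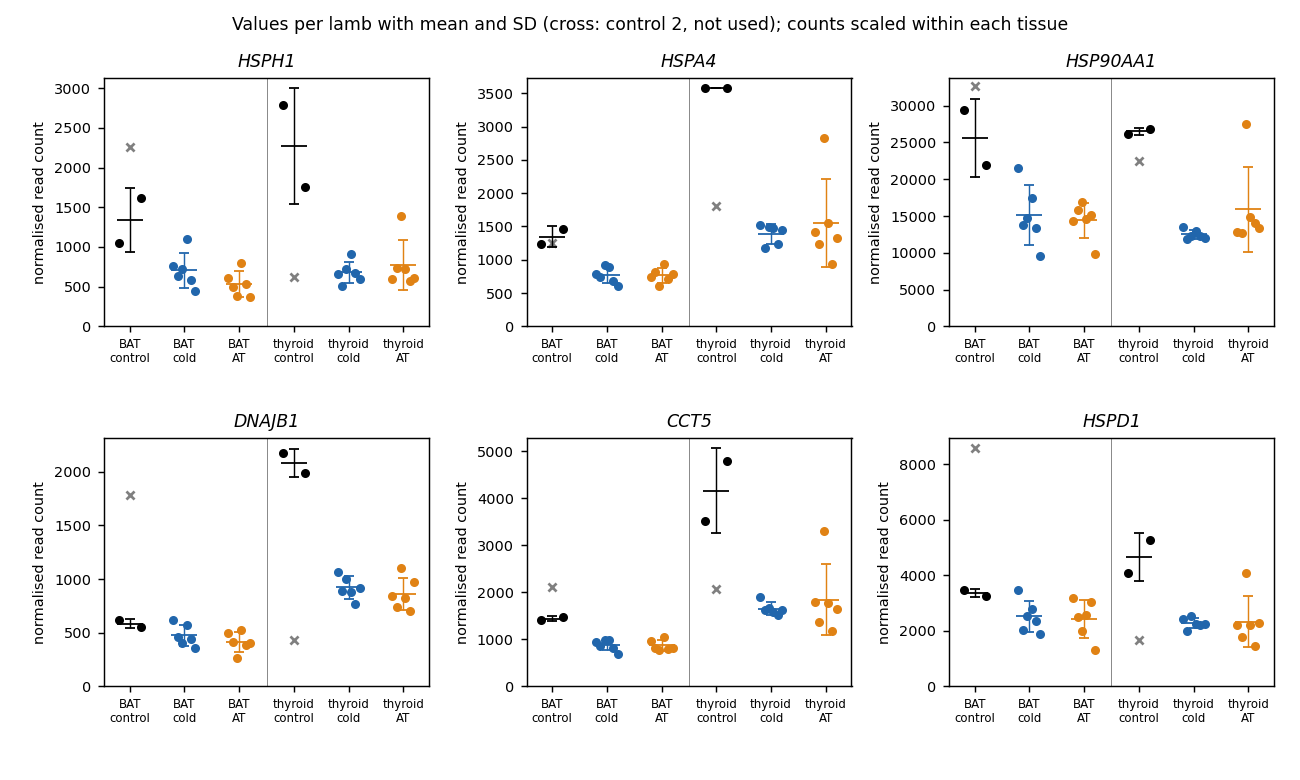
Normalised read counts per lamb (points) of 6 members are plotted by tissue and group with the mean and SD of the libraries used in the tests; crosses mark control 2. In thyroid, cold values lie below both used controls in all 6 panels and the highest AT point is AT 3, while for DNAJB1 the cross of control 2 is above the other BAT values and below the other thyroid values.

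CCT5 was the CCT subunit with the largest change in thyroid, from 3519 and 4799 in the controls to 1513 to 1909 in the cold lambs (median 1625) and 1186 to 3295 at AT (median 1714). The groups did not overlap, and it fell to 0.398 (adjusted p = 0.00584) and 0.444 of control (adjusted p = 0.00882). CCT2 fell in both comparisons and CCT7 in the cold, whereas TCP1 was at -0.36 ± 0.22 in both. Among the prefoldin subunits PFDN6 fell in both comparisons, from 1212 and 1726 to 644 to 975 in the cold (log2FC -0.91 ± 0.23, adjusted p = 0.0175). PFDN2 fell in the cold, with overlapping groups (adjusted p = 0.0457). PFDN5 overlapped its controls, at 3987 and 4212 in the controls and 3265 to 4172 in the cold (log2FC -0.12 ± 0.17, adjusted p = 0.641).

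HSPD1, on chromosome 2 (213522757-213532448, - strand), stood at 4062 and 5283 in the thyroid of the controls, at 1991 to 2519 in the cold (median 2250) and at 1448 to 4095 at AT (median 2207). It fell to 0.487 of control in the cold (adjusted p = 0.0162) and to 0.500 at AT (adjusted p = 0.017), and AT 3 alone overlapped the controls. LOC106990104, an unnamed gene 39 bases from HSPD1 on the other strand that was chosen after its values were seen, had a log2FC of -1.02 ± 0.30 in cold thyroid (adjusted p = 0.0312). GRPEL1, the nucleotide exchange factor of HSPA9, fell in the cold from 937 and 1320 to 326 to 786 (log2FC -1.12 ± 0.34, adjusted p = 0.0331), as did DNAJA3 and TRAP1. HSPA9 itself had 8028 and 8784 in the controls, 3532 to 4166 in the cold and 15125 in AT 3. Its log2FC of -1.11 ± 0.48 in the cold did not pass (adjusted p = 0.114). HSF1 (2929 and 2856 in the controls, 1741 to 2644 in the cold) and HSF2 (1084 and 705, against 416 to 654) lay below both controls in every cold lamb and did not pass (adjusted p = 0.0797 and 0.051). In control 2 HSF1 was at 10356, above the other 14 thyroid libraries.

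The small HSPs and BAG3 were highest in the 2 thyroid libraries with skeletal muscle markers. This was not particular to them. The same 2 libraries were also the highest for other members, among them DNAJB4, DNAJA2, HSP90AB1 and HSF2. HSPB8 and BAG3 act as one complex that clears damaged proteins in muscle cells, and CRYAB is abundant in muscle. HSPB8 had 19831 normalised counts in control 1, 10501 in AT 3, 86.0 in control 3 and 70.3 to 737 in the other 11 treated lambs. Its log2FC in the cold was -5.69 ± 1.64 (adjusted p = 0.0327), and without control 1 it was 1.17 (adjusted p = 0.754). CRYAB had 97848 in control 1 and 132620 in AT 3, against 14508 in control 3 and 9102 to 14196 in the other treated lambs, and HSPB1 had 41126 and 75129 against 10010 and 7191 to 9063. Neither passed in the cold (adjusted p = 0.081 and 0.141) or at AT (0.565 and 0.77). BAG3 had 6558 in control 1 and 5576 in AT 3, but also 3148 in control 3 against 643 to 1105 in the other treated lambs. It fell in the cold (log2FC -2.24 ± 0.64, adjusted p = 0.0297) and did not pass at AT (-1.57 ± 0.65, adjusted p = 0.101). With control 1 left out the log2FC was -1.62 (adjusted p = 0.18), and with AT 3 left out as well it was -1.63. Both leave control 3 as the only control.

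**Figure D5:**
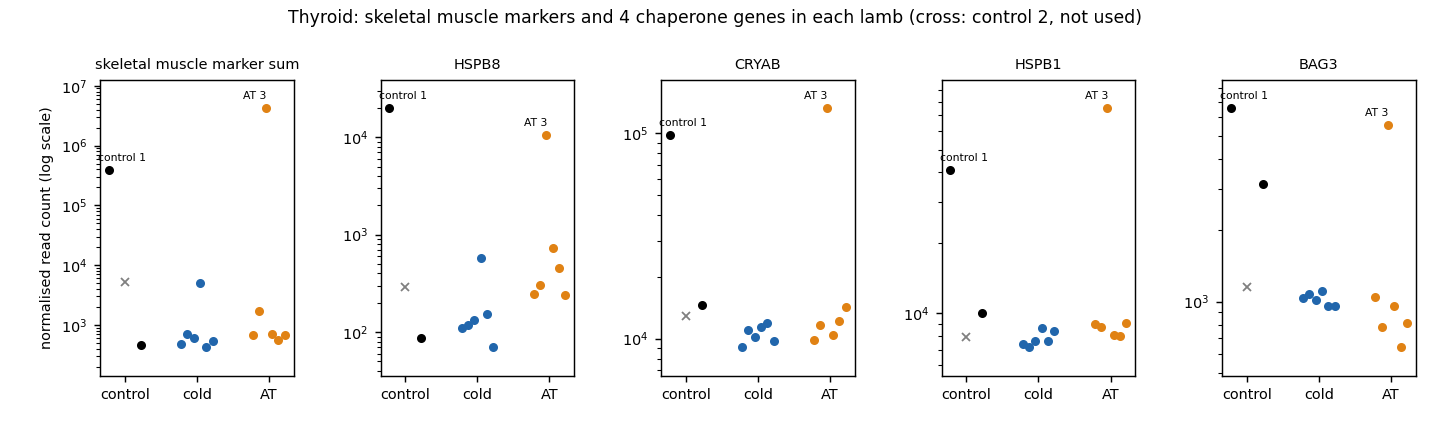
The summed normalised count of the skeletal muscle markers and the normalised counts of 4 members are plotted per thyroid library by group (log scale); crosses mark control 2. Control 1 and AT 3 are the 2 highest libraries in each panel, and in BAG3 control 3, at 3148, also lies above the other 11 treated lambs.

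The thyroid counts moved with single libraries. In the refits below, how many of all genes passed was not counted. In the cold comparison 25 became 3 without control 3 and 15 without cold 2, cold 5 or cold 6. In the AT comparison 18 became 37 without AT 3, 2 without control 3, and 11 without AT 1, AT 2 or AT 5. A fit of the AT lambs and controls alone left 3 of the 18, DNAJB1, DNAJB6 and HSPH1. With control 1 and AT 3 both left out, and control 3 alone assumed to vary like the other groups, 28 members fell in the cold and 28 at AT; with control 2 put in place of control 1, 13 and 12. With all 3 controls the counts were 11 and 8. By TMM scaling, which moved the median of all genes from -0.28 to 0.02 in the cold and to 0.05 at AT, 9 and 5 members fell, with medians of -0.59 and -0.37. DNAJB1 and HSPH1 passed without each of the lambs in turn in both comparisons, and HSPA4, CCT5, DNAJB6, HSPH1, HSP90AA1 and TRAP1 passed in the cold under each of the 8 other settings planned.

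Markers of cell types also differed from the controls in thyroid. Of 9 thyroid follicular markers tested, 3 fell in the cold and 3 at AT, beside 16.9% and 18.7% of all genes. Of 7 macrophage and neutrophil markers 3 rose in each, beside 378 and 360 of all 16122 genes. The summed follicular markers were 2882020 and 5891880 in the controls, 1803530 to 2716610 in the cold and 1328920 to 2434480 at AT, lower in every treated lamb. The summed macrophage and neutrophil markers were 1434 and 1467 in the controls and higher in every treated lamb, at 1845 to 4079 in the cold and 1680 to 3511 at AT. In the unused control 2 the 2 sums were 1932030 and 2929, within the ranges of the treated lambs. Of 8 endothelial markers, 2 fell in the cold and 3 at AT, and 2 of 6 smooth muscle and pericyte markers fell in each. The shares of all genes that fell were again 16.9% and 18.7%. The part of these marker differences in the chaperone results was not tested.

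The 79 further chaperone genes on 6 companion lists, of which 73 were tested in each tissue, were described by their counts. In thyroid 27 of 73 fell in the cold and none rose (median log2FC -0.48), beside 16.9% of all genes that fell and their median of -0.28. At AT 19 fell and 1, HSPB11, rose (median -0.47), beside 18.7% of all genes that fell and a median of -0.28. In the same comparison 360 of all 16122 genes rose. CCT6A, the CCT subunit outside the list of members, fell by 1.67 on the log2 scale in the cold (SE 0.31, adjusted p = 0.00399) and by 1.52 at AT (SE 0.31, adjusted p = 0.00536). HSPA1A, the classical stress-induced HSP70, fell in both as well (log2FC -1.77, adjusted p = 0.0194, and -1.76, adjusted p = 0.0174). Its near-identical copies share reads, so its value is uncertain. DNAJB5 and DNAJA4 led the J-domain list in the cold, TOMM34 and TTC4 the HSP90 partners, and TIMM44, HSCB and CLPB the 7 of 16 mitochondrial genes that fell.

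In BAT the same genes were mostly below the controls, and few passed. In the cold, 2 of 44 members fell and none rose, where 1.48% of all 14905 genes passed and 0.879% fell. The log2FC was below 0 for 43 members (58.8% of all genes), with a median of -0.43 against -0.10 over all genes. In AT lambs 9 members fell and none rose, where 9.3% of all genes passed and 6.15% fell. Here 38 members were below 0 (52.4% of all genes), with a median of -0.41 against -0.03. Of these, 3 fell with a log2FC of -1 or below (3.21% of all genes). All 6 cold lambs lay below both controls for 21 members (15.7% of all genes) and all 6 AT lambs for 19 (15.3% of all genes). The 1 member above both controls in every treated lamb was PFDN5, in the cold and at AT (8.89% and 8.96% of all genes). With all 3 controls, 19 and 17 members lay below every control, beside 7.33% and 7.17% of all genes, and PFDN5 lay above every control in both.

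The 2 members that fell in cold BAT were FKBP4, an immunophilin partner of HSP90, and HSPA4. FKBP4 stood at 2268 and 2188 in the controls and at 1063 to 1261 in the cold lambs (median 1192), and fell to 0.527 of control (log2FC -0.92 ± 0.20, adjusted p = 0.0365). HSPA4 had 1233 and 1459 in the controls, 601 to 918 in the cold (median 762) and 608 to 937 at AT (median 765). It fell to 0.571 of control in the cold (adjusted p = 0.0497) and to 0.569 at AT (adjusted p = 0.0181). At AT the largest fall was that of HSPH1, from 1055 and 1623 to 371 to 804 (median 515), or to 0.398 of control (log2FC -1.33 ± 0.30, adjusted p = 0.0148). Its log2FC in the cold was -0.93 ± 0.31 (adjusted p = 0.121), with cold 4, at 1095, above control 1.

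HSPB1 had 9180 and 8379 in BAT controls, 4885 to 5620 in the cold and 2644 to 5398 at AT, with no overlap, and fell at AT to 0.499 of control (adjusted p = 0.0138). GRPEL1 fell at AT from 816 and 633 to 213 to 485 (log2FC -1.02 ± 0.27, adjusted p = 0.0273). The other falls at AT were STIP1, PTGES3 and CHORDC1 among the HSP90 co-chaperones (-0.91, -0.80 and -0.90), CCT5 (-0.72) and PFDN6 (-0.69). HSPD1 had 3451 and 3245 in the controls, 1900 to 3479 in the cold and 1297 to 3194 at AT, and passed in neither (log2FC -0.41 ± 0.29 and -0.46 ± 0.29). HSPA8 (log2FC -0.44 ± 0.28 and -0.60 ± 0.28) and HSP90AA1 (-0.76 ± 0.26 and -0.83 ± 0.26) did not pass, although all 12 treated lambs lay below both controls in HSP90AA1. In cold BAT the largest log2FC of all members was that of CRYAB (-1.15 ± 0.43), which did not pass. Other members with the largest change in a class where none passed included GRPEL1 (-0.91 ± 0.27, adjusted p = 0.0885), CCT5 (-0.70 ± 0.18, adjusted p = 0.0612), PFDN6 (-0.69 ± 0.19, adjusted p = 0.068) and BAG2 (-0.45 ± 0.32). In the cold, the J-domain genes had the class median closest to the controls (-0.20). Their values ran from -0.30 for DNAJA2 and DNAJB1 to -0.09 for DNAJB6. At AT their median was -0.34, beside -0.33 in prefoldin, -0.17 in the BAG genes and -0.14 in the heat shock factors. DNAJB4 was lowest of the J-domain genes at AT (-0.74 ± 0.30, adjusted p = 0.129, edgeR). HSP90AB1 overlapped its controls (-0.10 ± 0.36 and 0.00 ± 0.36).

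PFDN5, a prefoldin subunit also known as a MYC-binding protein, stood at 1838 and 1602 in BAT controls, 2153 to 2858 in the cold (median 2434) and 2063 to 3514 at AT (median 2494). The groups did not overlap, yet the log2FC of 0.52 ± 0.24 in the cold (adjusted p = 0.254) and 0.62 ± 0.24 at AT (adjusted p = 0.11) did not pass. CRYAB in BAT had 1100 and 502 in the controls, 197 to 488 in the cold and 119 to 637 at AT, and did not pass (log2FC -1.15 ± 0.43, adjusted p = 0.163, and -1.01 ± 0.43, adjusted p = 0.152). BAG3 (-0.25 ± 0.21 in the cold and -0.35 ± 0.21 at AT) and HSF2 (-0.31 ± 0.25 and -0.06 ± 0.26) overlapped their controls. HSF1 had 3367 and 3226 in the controls, 1196 to 3157 in the cold and 1118 to 4698 at AT, and did not pass (-0.56 ± 0.39 and -0.23 ± 0.40). Skeletal muscle markers summed to 590.6 to 1529 in the BAT libraries tested.

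The BAT counts also rested on few lambs. In the refits below, how many of all genes passed was again not counted. In the cold, the count of 2 became 0 without control 1, control 3, cold 1, cold 2, cold 3, cold 5 or cold 6, and 13 with all 3 controls. At AT, 9 became 0 without control 1 or control 3, 5 without AT 3, and 16 with all 3 controls, of which 1 rose. A fit of the AT lambs and controls alone left 1 of the 9, HSPH1. At AT 3 of 6 smooth muscle and pericyte markers and 2 of 8 endothelial markers fell, beside 6.15% of all genes. In the cold none of either list passed. The summed brown adipocyte markers were 110822 and 111063 in the controls, 50387 to 93407 in the cold, all lower, and 29147 to 121866 at AT. The unused control 2 had 366121. Their part in the chaperone results was not tested. Of the 73 companion genes, 2 fell in the cold, DNAJA4 and HSPBP1, beside 0.879% of all genes. At AT 6 of them fell and 2 rose, beside 6.15% of all genes that fell and 469 of all 14905 genes that rose. BAG5 (-1.07 ± 0.23), DNAJA4 and CCT6A (-0.97 ± 0.22) were among those that fell, and PPP5C (2.55 ± 0.69, adjusted p = 0.0315) and HSF4 (2.31 ± 0.53, adjusted p = 0.0164) rose.

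Cold and AT lambs, which were of one age, were compared directly to ask whether temperature itself moved these genes. No member passed in either tissue (edgeR quasi-likelihood test), where 0.309% of all genes passed in BAT and 0% in thyroid. At an unadjusted p under 0.05, 4 of 44 members differed in BAT, beside 1831 of all 14905 genes. In thyroid 3 of 44 did, beside 870 of all 16122 genes. DESeq2's Wald test called 1 member in BAT and 0 in thyroid, and how many of all genes it called was not counted. The median log2 difference, cold minus AT, was 0.00 in BAT (20 of 44 below 0) against -0.05 over all genes (57.1% below 0). In thyroid it was -0.16 (35 of 44 below 0) against 0.00 over all genes (49.0% below 0). Without AT 3 the thyroid median of the members was 0.06 and 14 of 44 lay below 0. The median over all genes without AT 3 is not given. In no member did the 2 groups separate without overlap in either tissue (in BAT 0.154% of all genes were lower and 0.537% higher in every cold lamb, in thyroid 0.0744% and 0.118%).

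The BAT member that DESeq2 called was HSPB8, which assists autophagy of misfolded proteins together with BAG3. It had 276 to 426 normalised counts in the cold (median 337) and 317 to 848 at AT (median 666), beside 492 and 407 in the controls. Of the AT lambs, AT 6 alone fell within the range of the cold lambs. The log2 difference was -0.92 ± 0.20 (adjusted p = 0.0615, edgeR), and it passed by TMM, by the median of ratios, and without AT 6. In BAT the log2 differences of HSPH1 (0.40 ± 0.23), DNAJB4 (0.57 ± 0.22) and TRAP1 (-0.47 ± 0.20) were the largest of their classes and did not pass. The differences of HSPA8 (0.16 ± 0.20), HSP90AA1 (0.07 ± 0.19) and HSPD1 (0.05 ± 0.21) had SEs that leave room for a change of either sign. In thyroid the 3 members with an unadjusted p under 0.05 were the small HSPs HSPB1, CRYAB and HSPB8, each highest in AT 3.

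Whether the change from the controls differed between the tissues was tested in one fit of both. No member passed for the cold (0.188% of all genes passed), and DESeq2 called 0. At an unadjusted p under 0.05, 7 of 44 members differed, beside 1999 of all 17021 genes. The median of the differences, BAT minus thyroid, was 0.49 against 0.27 over all genes. Above 0 were 40 of 44 members and 11929 of all 17021 genes. With all 3 controls the median was 0.12 with 25 of 44 above 0, and with all 3 controls and TMM it was -0.15. At AT the median was 0.301 against 0.306 over all genes, and 35 of 44 members and 11831 of all 17021 genes were above 0. Here 1 member passed, where 1.66% of all genes did. DNAJB6, a J-domain protein that keeps polyglutamine proteins from aggregating, had 596 and 675 in BAT controls against 456 to 724 at AT, and 3047 and 5249 in thyroid controls against 1144 to 2562. Its difference was 1.21 ± 0.31 on the log2 scale (adjusted p = 0.0435). With the lamb as a block it was 1.19 (adjusted p = 0.0586, edgeR), and without control 3, which leaves control 1 alone, it was 0.86. Without AT 3 a total of 6 members passed. For these refits and for DESeq2, how many of all genes passed was not counted, and medians over all genes are not given.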

How the data were processed

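Per the labels and the study's methods, mRNA selected with oligo(dT) beads from total RNA was sequenced in 30 libraries, BAT and thyroid of 15 lambs. The deposited values are raw read counts per gene, which the authors made with FastQC 0.11.9, Trimmomatic 0.39, STAR 2.7.7a and featureCounts of Subread 2.0.0 on the sheep build Oar_rambouillet_v1.0. Multi-mapping reads were included in the counts, and the strand setting is not given in the sources used here.

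Counts were scaled within each tissue on 3 reference genes (ACTB, RPL19 and HUWE1), as the study did, and jointly where tissues were compared. Genes reaching 10 reads in 10 or more libraries entered the test with edgeR 4.0.16 (R 4.3.3), by robust quasi-likelihood fits with one spread over all groups. Libraries of controls 1 and 3 stood for the controls, since the study set aside the lamb numbered control 2 here. P-values were adjusted by Benjamini-Hochberg over all genes tested, and a gene rose or fell at an adjusted p under 0.05. Levels between genes are per kilobase of merged exon. Alternatives were TMM, median of ratios, DESeq2 1.42.0, other filters, all 3 controls, RNA integrity as a covariate, the lamb as a block, and leaving out each lamb.

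Both tissues came from the same lamb, so the numbers pair libraries across tissues. Deviations from the group means correlated between a lamb's tissues at -0.0027 to 0.371, above 0.1 in 13 of 14 lambs. Controls 1 and 3 hold the same value, 0.107, because deviations from a mean of 2 libraries mirror each other. For 11 of 14 lambs the BAT library correlated best with the thyroid library of the same lamb. Correlations of unmatched libraries are not given.

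Each class member was eligible to be named; full values were given for the member that changed most in its class among those that passed, and always for HSPA8, HSP90AA1, HSP90AB1, HSPD1, HSF1 and HSF2. Members, lists and rules were chosen with earlier results of these data known. In BAT, 2 unnamed genes took 43.8 to 76.5% of all counts, which left 8093700 to 18276329 counts for the others. Replicates of a group are separate lambs, and no sequences are shown.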

Additional observations from a re-analysis of the deposited data

Results flagged for a closer look

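Dixon's test was applied to the mean log2 level of each class, relative to controls 1 and 3, among the 6 lambs of a treated group. It marked 8 of 44 tests, where chance marks about 1 in 20. In thyroid, AT 3 lay far above the other AT lambs in the mean over all members (0.166), HSP90 (0.233), small HSPs (2.23), BAG genes (0.448), prefoldin (0.335) and mitochondrial chaperones (0.144). The other 5 AT lambs had means over all members of -1.19 to -0.80. The same library held the skeletal muscle markers at 4208550 summed normalised counts, whose part in these values was not tested. The mean of the 2 heat shock factors stood apart in BAT AT 6, at -0.90, and in thyroid cold 4, at -0.27. In BAT AT 6, HSF1 was the lowest of the AT lambs, at 1118 normalised counts. HSF2, at 210, was above AT 1 (194) and AT 3 (206). Neither gene was marked by itself in either group. Over single members 33 of 176 tests were marked, 25 of them for thyroid AT 3 as the highest.

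DNAJB6 was marked because its change at AT differed between the tissues, by 1.21 on the log2 scale (BAT minus thyroid, edgeR quasi-likelihood test, adjusted p = 0.0435). Its log2FC was -0.09 in BAT and -1.25 in thyroid.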

How the results depend on the processing

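Counts of members that passed are given as cold then AT. Beyond the main fits, how many of all genes passed was not counted. In BAT (2 and 9), requiring an absolute log2FC of 1 gave 0 and 3, all 3 controls 13 and 16, and all 3 controls with TMM 22 and 24. TMM and the median of ratios gave 4 each in the cold, DESeq2 7, no filter and filterByExpr 1 each, and a fit of the 2 groups alone gave 1 at AT. Leaving out single lambs gave 0 to 3 and 0 to 11. Cold against AT in BAT (0) gave 1 by TMM, the median of ratios and DESeq2, and 0 to 1 without single lambs. In thyroid (25 and 18), the log2FC of 1 gave 14 and 8, TMM and the median of ratios 9 and 5, all 3 controls 11 and 8, and all 3 controls with TMM 10 and 2. A fit of the 2 groups alone gave 3 at AT. Without AT 3 and control 1, an alternative chosen after seeing the data like all 3 controls with TMM, the counts were 13 in the cold with controls 2 and 3, and 28 at AT with control 3 alone. Leaving out single lambs gave 3 to 27 and 2 to 37. BAT against thyroid (23) gave 6 at a log2FC of 1 and 16 to 29 without single lambs, and 22 with the lamb as a replicate block. The tissue difference at AT (1) gave 2 by DESeq2 and with all 3 controls, 0 with no filter, with all 3 controls and TMM and with the block, and 0 to 6 without single lambs. The cause of these shifts was not tested.

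Signs turned for HSPB8 in cold thyroid (1.17 without control 1, its other single-lamb fits reaching -6.66, 1.16 with control 3 alone, 0.041 with controls 2 and 3), for DNAJB4 in thyroid with controls 2 and 3 (0.18 in the cold, 0.13 at AT), and between tissues for HSPA14 (-0.075 by median of ratios, -0.025 with all 3 controls and TMM) and CHORDC1 (-0.011 with all 3 controls and TMM). Of the values of single genes, 1118 kept direction and side of the threshold, 423 kept direction only and 8 reversed. With 2 controls, the smallest changes that passed against controls were -0.48 on the log2 scale in thyroid (HSPA14) and -0.69 in BAT (PFDN6).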
